A study of Mus musculus with 36 samples.

Results

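The 9 genes described here encode the NLRP3 inflammasome, the enzymes that act with it and its cytokine substrates: Nlrp3, Pycard, Casp1, Casp4, Gsdmd, Il1b, Il18, Nek7 and Txnip. They were taken by symbol from a gene-level count table of 54347 mouse genes, and each symbol matched 1 row. The table held 36 RNA-seq libraries of primary cells from male mice, 3 in each of 12 groups. The labels give the strain as C57Bl/6 throughout, and the study's methods name C57BL/6NHsd for the hepatocytes, so that substrain and cell type cannot be told apart where hepatocytes are compared with other cells. Macrophages were grown from bone marrow in L929-conditioned medium, adipocytes were differentiated from the inguinal stromal vascular fraction of several pooled mice, myotubes were differentiated from hindlimb myoblasts, and hepatocytes were isolated by collagenase perfusion. Each cell type was exposed for 6 h to phosphate-buffered saline as the control, to 5 mM β-hydroxybutyrate (βOHB, the main ketone body of fasting) or to 5 mM butyrate, the short-chain fatty acid that lacks the hydroxyl group of βOHB. No priming agent such as lipopolysaccharide was named for any group. The comparisons asked how far each metabolite changed the transcript levels of these genes after 6 h.

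NLRP3 is a cytosolic sensor that assembles, with the adaptor ASC (encoded by Pycard) and the mitotic kinase NEK7, into a platform that activates caspase-1. Caspase-1 cuts pro-interleukin-1β and pro-interleukin-18 into their secreted forms and cuts gasdermin D, whose fragment opens pores in the plasma membrane, and caspase-4 (caspase-11 in mouse) cuts gasdermin D on sensing cytosolic lipopolysaccharide. TXNIP binds thioredoxin and was described as a partner of NLRP3 under oxidative stress. In macrophages, Nlrp3 and Il1b are transcribed at low levels until NF-κB is activated, and βOHB is known as a blocker of NLRP3 assembly, a step downstream of transcription that these data do not measure.

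Between 18366289 and 23221473 estimated counts were assigned to genes per library, with a median of 22177562. Levels are given as CPM, counts per 1000000 counts of the library total after scaling by the trimmed mean of M-values (TMM), as mean ± SD of 3 libraries. Differences are log2 ratios from edgeR's quasi-likelihood test, with p-values adjusted by Benjamini-Hochberg over 15340 genes and a call at an adjusted p below 0.05. Nothing in the labels ties the 3 libraries of a group to separate cultures or animals, so the p-values measure the spread between these libraries. All 9 genes passed the expression filter, which asked for over 1 CPM in at least 6 libraries. The filter used CPM of the library totals before TMM scaling, and on that scale Il1b was over 1 CPM in 11 libraries, 6 of them macrophage libraries. The labelled cell types carried their own markers: 9 macrophage markers summed to between 17489 and 17678 CPM in macrophage controls, and to between 113 and 406 CPM in the other controls. Fibroblast markers summed to between 2330 and 2451 CPM in the macrophage controls and to between 5886 and 6848 CPM in the adipocyte controls. They summed to between 1302 and 1550 CPM in the myotube controls and to between 17.5 and 21.7 CPM in the hepatocyte controls. The part of these markers in the levels and changes of the 9 genes was not tested. Hepatocyte markers were at 31.6, 559 and 131 CPM in the 3 myotube butyrate libraries and at 24.1 CPM in 1 myotube βOHB library, against at most 0.0440 CPM in myotube controls, and results in myotubes are also given without single libraries where leaving one out changed a call. In bulk RNA, fewer cells of a type and less RNA per cell cannot be told apart.

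Nlrp3, the sensor itself, was highest in macrophages among the controls. The gene lies on the plus strand of chromosome 11 at positions 59541568 to 59566956 (GRCm38, as for all positions here). Its level in the 3 macrophage controls was 21.7, 23.4 and 23.6 CPM, against 1.65, 2.02 and 2.15 CPM in adipocyte controls. In myotube controls it was 0.780, 0.661 and 0.0880 CPM, and in hepatocyte controls 0.314, 0.123 and 0.118 CPM. The macrophage libraries lay above every other control library and the adipocyte libraries above the remaining ones, whereas myotube and hepatocyte controls overlapped. The log2 difference between macrophage and adipocyte controls was 3.56 (SE 0.21, adjusted p = 3.25e-16). All 9 genes were called between these cell types, 7 higher in macrophages and 2 lower, where 77.5% of the genes tested were called. Against myotube controls 6 of the 9 were called, all higher in macrophages, beside 82.2% of all genes. Against hepatocyte controls all 9 were called, 8 of them higher in macrophages, beside 82.1% of all genes.

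Casp1, the effector protease (chromosome 9, positions 5298517 to 5307265, plus strand), followed the same order, with 51.1 ± 2.73 CPM in macrophage controls, 12.8 ± 0.144 in adipocytes, 1.40 ± 0.607 in myotubes and 0.205 ± 0.0752 in hepatocytes (n = 3 each), and no neighbours in that order overlapped. Pycard, which encodes the adaptor (chromosome 7, positions 127989708 to 127993867, minus strand), was near equal in macrophages and myotubes: the macrophage controls held 21.9, 20.4 and 23.0 CPM and the myotube controls 17.0, 20.6 and 18.0 CPM. These libraries overlapped, and the log2 difference of 0.23 (SE 0.12, 95% interval -0.02 to 0.48) did not pass the test (adjusted p = 0.0801), although it did with limma-voom (0.24, adjusted p = 0.0401), without the filter (0.27, adjusted p = 0.0272), with the libraries of these cell types alone (0.25, adjusted p = 0.0128) and without myotube control library 2 (0.31, adjusted p = 0.0383). Adipocyte controls held 2.21 ± 0.499 CPM of Pycard and hepatocyte controls 0.222 ± 0.119 CPM. Casp4, the lipopolysaccharide-sensing caspase (chromosome 9, positions 5308828 to 5336783, plus strand), was highest in adipocytes, at 22.5 ± 5.59 CPM against 11.7 ± 0.895 CPM in macrophages, a log2 difference of -0.95 for macrophages against adipocytes (SE 0.18, adjusted p = 2.29e-05). Casp1 and Casp4 lie 1562 bases apart on chromosome 9 and are similar in sequence, so a share of their reads may have been assigned to the wrong gene of the pair.

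Gsdmd, which encodes the pore-forming substrate (chromosome 15, positions 75862327 to 75867408, plus strand), was highest in hepatocytes. Its control level was 73.5 ± 3.54 CPM there, 34.9 ± 1.07 in macrophages, 6.98 ± 0.903 in adipocytes and 3.02 ± 0.795 in myotubes, and no neighbours overlapped. Nek7 (chromosome 1, positions 138482875 to 138620141, minus strand) was high in every cell type, from 110 ± 2.70 CPM in hepatocytes to 212 ± 11.8 CPM in myotubes. The macrophage level of Nek7, 197 ± 5.61 CPM, lay just below the myotube level, and that difference did not pass the test (log2 difference -0.10, 95% interval -0.24 to 0.03, adjusted p = 0.145), although it did with DESeq2 (-0.14, adjusted p = 0.0372) and with relative log expression (RLE) size factors (-0.14, adjusted p = 0.0466). Txnip (chromosome 3, positions 96557957 to 96561883, plus strand) was highest in adipocytes, with 616 ± 20.5 CPM, and lower in macrophages (191 ± 7.41 CPM), myotubes (48.8 ± 2.07 CPM) and hepatocytes (18.1 ± 1.37 CPM), without overlap between neighbours.

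The cytokine substrates were scarce. Il18 (chromosome 9, positions 50554827 to 50581840, plus strand) was highest in macrophage controls at 4.82 ± 0.398 CPM, followed by hepatocytes at 2.81 ± 0.257, adipocytes at 0.801 ± 0.136 and myotubes at 0.600 ± 0.315 CPM, of which the last pair overlapped. Il1b (chromosome 2, positions 129364570 to 129371139, minus strand) was at 0.763, 1.21 and 1.21 CPM in macrophage controls, equal to between 18 and 28 counts per library. Myotube controls held 1.56, 1.81 and 1.41 CPM of Il1b, above each macrophage control, yet the difference did not pass the test (log2 difference -0.59 for macrophages against myotubes, 95% interval -1.19 to 0.01, adjusted p = 0.066). Il1b had no count in any of the 3 adipocyte controls. Against a floor of 3 counts per library, 0.129 CPM, Il1b was at least 8.25-fold higher in macrophage controls. Macrophage marker genes were present in the myotube cultures, and their part in the myotube levels of Il1b was not tested.

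**Figure D1:**
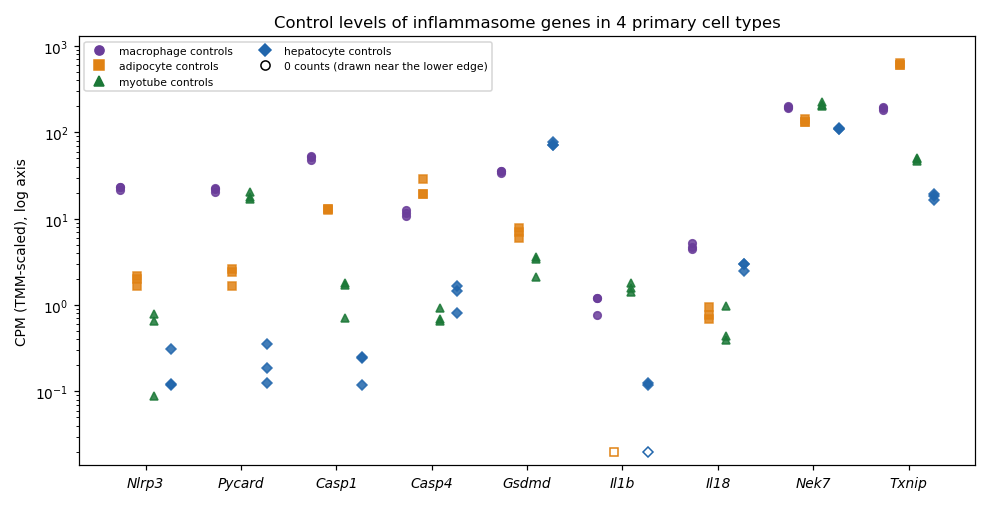
Control levels of the 9 genes on a log axis of TMM-scaled CPM, 1 symbol per library and 3 libraries per cell type; open symbols stand for libraries with 0 counts. Nlrp3 and Casp1 sit highest in macrophages, Casp4 and Txnip in adipocytes and Gsdmd in hepatocytes, and Il1b lies below 2 CPM everywhere.

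Per kilobase of the principal transcript, a scale on which genes can be set beside each other, the macrophage controls held 68.4 CPM per kb of Txnip, 37.5 of Nek7, 34.1 of Casp1 and 19.5 of Gsdmd. On the same scale Casp4 was at 8.13, Pycard at 5.72, Nlrp3 at 5.70, Il18 at 5.60 and Il1b at 0.783 CPM per kb. With these lengths the sensor and the adaptor were at a near equal level and both were below the caspase that they activate. The annotated principal transcript of Pycard is 3800 bases long, the same as all its merged exons. A shorter transcript would give a higher level per kilobase, so the place of Pycard in this order is not settled.

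In macrophages, butyrate changed 7 of the 9 genes, lowering 5 and raising 2. Across all genes tested it changed 65.0%, so the share of the inflammasome genes that moved was near the background. The sensor, the substrate Gsdmd, Casp1, Nek7 and Il1b fell, and Il18 and Txnip rose. The median log2 difference of the 9 genes was -0.42, beside 0 over all genes tested.

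Nlrp3 showed the largest fall of the 9 in macrophages. It was at 21.7, 23.4 and 23.6 CPM in controls and at 6.78, 7.64 and 7.86 CPM after butyrate. The groups were far apart, and every butyrate library was below every control. The log2 difference was -1.62 (SE 0.17, 95% interval -1.98 to -1.27, adjusted p = 1.67e-09), a 3.08-fold lower level.

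Gsdmd fell from 33.7, 35.5 and 35.6 CPM to 16.1, 17.1 and 17.2 CPM. The ranges did not overlap, and the level was 2.08-fold lower (log2 difference -1.06, SE 0.10, adjusted p = 2.44e-10). Casp1 fell less, from 51.1 ± 2.73 to 37.4 ± 2.69 CPM (log2 difference -0.45, SE 0.10, adjusted p = 0.000275), again without overlap. With library totals alone as the scaling, the fall of Casp1 was -0.22 and no longer passed the test (adjusted p = 0.0597). That scaling moved the median of all genes upward by 0.20 in this comparison, and 66.7% of the called genes were then raised, against 49.0% with TMM. Nek7, which licenses NLRP3 for assembly, fell from 197 ± 5.61 to 147 ± 3.73 CPM (log2 difference -0.42, SE 0.07, adjusted p = 1.46e-06).

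Pycard was at 21.7 ± 1.31 CPM in macrophage controls and 25.4 ± 2.06 CPM after butyrate. Each butyrate library was above each control, by a log2 difference of 0.22 (SE 0.12, 95% interval -0.02 to 0.47) that did not pass the test (adjusted p = 0.101), although it did with library totals alone (0.45, adjusted p = 0.00153), with DESeq2 (0.24, adjusted p = 0.0247), with the macrophage libraries alone (0.26, adjusted p = 0.00305) and without butyrate library 2 (0.31, adjusted p = 0.0476). A gene model on the opposite strand, Gm45205, overlaps Pycard by up to 485 bases and held at most 9 counts in any library. Casp4 was at 11.7 ± 0.895 and 9.72 ± 0.658 CPM and was not called (log2 difference -0.26, 95% interval -0.65 to 0.12, adjusted p = 0.229), except with the macrophage libraries alone (-0.23, adjusted p = 0.0314).

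The cytokine genes moved apart. Il18 was at 4.45, 5.24 and 4.76 CPM in controls and 10.8, 9.04 and 9.64 CPM after butyrate. The butyrate libraries all lay above the controls, a 2.04-fold higher level (log2 difference 1.03, SE 0.18, adjusted p = 8.11e-06). Il1b was at 0.763, 1.21 and 1.21 CPM in controls and at 0.695, 0.234 and 0.888 CPM after butyrate. These ranges overlapped, and the log2 difference of -0.81 (SE 0.34) passed the test narrowly (adjusted p = 0.0359). The fall of Il1b lost its call without control library 2 (adjusted p = 0.104), without control library 3 (0.119) or without butyrate library 2 (-0.39, adjusted p = 0.286). It was also lost under DESeq2 (0.0765), with library totals alone (0.131), without the filter (0.0701) and with the macrophage libraries alone (0.0859).

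Txnip rose in macrophages from 190, 199 and 184 CPM to 368, 356 and 351 CPM. The groups were well apart, a 1.88-fold higher level (log2 difference 0.91, SE 0.08, adjusted p = 4.96e-11). An antisense gene, Gm15441, overlaps up to 441 bases of a Txnip exon on the opposite strand. It held at most 34 counts in any library, and its total over all libraries was 0.120% of that of Txnip. The sum of the 9 macrophage markers in the macrophage cultures was between 17489 and 17678 CPM in controls and between 10719 and 11264 CPM after butyrate. Of these 9 markers 6 fell under butyrate and none rose, beside the 65.0% of all genes called. In the same libraries all 6 myotube markers rose, from a sum of 5.93, 12.2 and 7.09 CPM in controls to 18.3, 21.8 and 51.8 CPM, against 18993 CPM or more in myotube controls. The part of either marker list in the changes of the inflammasome genes was not tested.

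**Figure D2:**
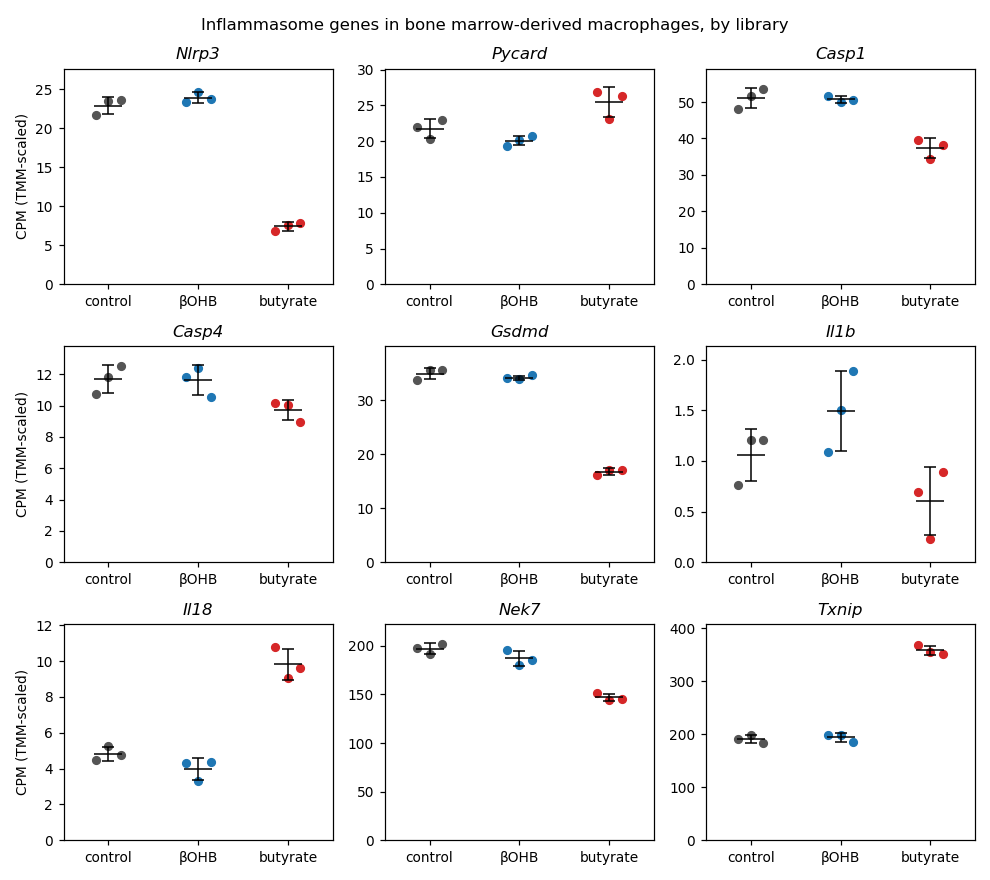
TMM-scaled CPM of the 9 genes in macrophages, with 1 point per library, a horizontal line for the mean and bars for the SD (n = 3). Butyrate libraries of Nlrp3 (6.78 to 7.86 CPM) and Gsdmd (16.1 to 17.2 CPM) lie below all controls and those of Il18 and Txnip above, while βOHB libraries lie among or near the controls.

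Promoter windows from RefSeq (GRCm38.p6) matched 8 of the 9 genes, all but Gsdmd. The upstream sequences of Nlrp3, Il18 and Txnip are shown because these genes had the largest log2 differences under butyrate in macrophages among the 8. Each is the 250 bases before the annotated start site, 5′ to 3′ on the strand of the gene, at chr11:59541319-59541568 for Nlrp3, chr9:50554450-50554699 for Il18 and chr3:96557707-96557956 for Txnip, all on the plus strand. Capitals mark letters of any of 6 motifs searched on both strands of the whole 300-base windows: the E-box CACGTG, the PU.1 core GAGGAA, the GC box GGGCGG, the TATA box TATAAA, the CCAAT box CCAAT and the AP-1 site TGANTCA.
Nlrp3: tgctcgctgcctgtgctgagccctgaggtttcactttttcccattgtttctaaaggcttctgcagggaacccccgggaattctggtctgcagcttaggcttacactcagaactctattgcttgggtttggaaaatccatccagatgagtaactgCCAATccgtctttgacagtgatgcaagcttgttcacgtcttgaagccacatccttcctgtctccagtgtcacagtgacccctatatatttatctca
Il18: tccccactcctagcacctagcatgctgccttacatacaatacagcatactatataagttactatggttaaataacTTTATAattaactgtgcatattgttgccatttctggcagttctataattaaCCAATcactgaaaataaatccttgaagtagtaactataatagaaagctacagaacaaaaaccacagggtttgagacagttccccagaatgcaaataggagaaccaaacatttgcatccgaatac
Txnip: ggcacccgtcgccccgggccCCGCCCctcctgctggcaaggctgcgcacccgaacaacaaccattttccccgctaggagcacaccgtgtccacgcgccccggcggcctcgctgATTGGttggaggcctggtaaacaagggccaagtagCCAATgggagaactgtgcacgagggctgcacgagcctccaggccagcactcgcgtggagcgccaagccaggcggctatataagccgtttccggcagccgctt

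The printed Nlrp3 window held a CCAAT box 96 bases before its start and no PU.1 core. The table holds another Nlrp3 window, for a start further downstream (chr11:59542436-59542735, plus strand), with PU.1 cores 220, 129 and 36 bases before that start and no CCAAT box. Il18 held a TATA box 175 bases and a CCAAT box 124 bases before its start, and Txnip held a GC box at 230 bases and CCAAT boxes at 137 and 102 bases. Of the 32851 windows in the table, 37.4% held a CCAAT box, 35.7% a GC box, 13.6% a TATA box, 28.3% a PU.1 core, 7.2% an E-box and 7.8% an AP-1 site. In the Casp1 window an E-box lay 137 bases and a PU.1 core 108 bases before the start, and in the Il1b window a TATA box lay 31 bases before it. The Pycard window held a PU.1 core 42 bases before its start and a GC box just after it, the Nek7 window held a GC box at 13 bases, and neither of the Casp4 windows held any of the motifs. These are matches of letters only.

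βOHB changed none of the 9 genes in macrophages, where edgeR called 0% of the genes tested. Over all genes 358 had an unadjusted p below 0.05 with edgeR, limma-voom called 0, and DESeq2 called 2, Rpl14-ps1 and Mup7, named here after their values were seen. None of the 9 inflammasome genes had an unadjusted p below 0.05 in macrophages with any of these tools. Nlrp3 was at 23.4, 24.7 and 23.7 CPM under βOHB. This was within or just above the control range, a log2 difference of 0.06 (95% interval -0.27 to 0.40, adjusted p = 1). The interval was -0.21 to 0.20 for Casp1, -0.23 to 0.17 for Gsdmd, -0.15 to 0.19 for Txnip and -0.21 to 0.06 for Nek7. The cytokine genes were less well determined: Il1b was at 1.09, 1.50 and 1.89 CPM (log2 difference 0.49, 95% interval -0.12 to 1.10) and Il18 at 4.32, 3.28 and 4.35 CPM (-0.27, 95% interval -0.66 to 0.12). Every βOHB library of Il18 was below every control, but the difference did not pass the test.

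Butyrate and βOHB, which differ by the hydroxyl group on carbon 3, were given at the same dose and time. Between them, 8 of the 9 genes were called in macrophages, 3 higher and 5 lower under butyrate, beside 64.7% of all genes. The difference for Nlrp3 was -1.69 (SE 0.17, adjusted p = 7.68e-10), for Il1b -1.30 (SE 0.32, adjusted p = 0.00086) and for Il18 1.30 (SE 0.18, adjusted p = 2.52e-07). For Il1b the ranges under the compounds did not overlap, 0.234 to 0.888 CPM under butyrate and 1.09 to 1.89 CPM under βOHB. Pycard was higher under butyrate than under βOHB (0.34, SE 0.12, adjusted p = 0.0141), and this call was lost without βOHB library 1 (adjusted p = 0.0514). Casp4 was not called, with a difference of -0.26 and a 95% interval of -0.64 to 0.13, except with the macrophage libraries alone (-0.22, adjusted p = 0.0376). With library totals alone, the calls of Casp1 (-0.21, adjusted p = 0.0734) and Nek7 (-0.12, adjusted p = 0.121) were lost. These contrasts share the butyrate libraries with the comparison against controls.

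In adipocytes, butyrate lowered 4 of the 9 genes, Nlrp3, Casp1, Casp4 and Gsdmd, and raised 1, Txnip, where 61.0% of all genes were called. Casp4, which was highest in this cell type, fell from 28.9, 19.1 and 19.4 CPM to 12.5, 10.4 and 9.20 CPM. The control libraries were uneven but all lay above the butyrate libraries, and the level was 2.10-fold lower (log2 difference -1.07, SE 0.18, adjusted p = 7.15e-06). Casp1 fell from 12.8 ± 0.144 to 7.70 ± 0.385 CPM (-0.74, SE 0.12, adjusted p = 5.52e-06) and Gsdmd from 6.98 ± 0.903 to 3.99 ± 0.486 CPM (-0.81, SE 0.14, adjusted p = 1.18e-05). Nlrp3 fell from 1.94 ± 0.264 to 1.05 ± 0.133 CPM (-0.89, SE 0.29, adjusted p = 0.00843), again without overlap. Macrophage markers in these cultures summed to between 346 and 406 CPM in controls and between 309 and 330 CPM after butyrate, and their part in the fall of Nlrp3 and Casp1 was not tested. Nek7 was at 135 ± 5.46 and 148 ± 4.22 CPM and was not called (0.14, adjusted p = 0.0719), but was with DESeq2 (adjusted p = 0.0356), RLE size factors (0.0452), library totals alone (0.23, adjusted p = 0.00592) and the adipocyte libraries alone (0.0294). Il1b had 1 count in 1 butyrate library and none in the others.

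Under βOHB, none of the 9 genes was called in adipocytes, where 0.00652% of all genes were called, the single gene Srp54b. Unadjusted, 1097 genes had p below 0.05, and Casp1 was the only one of the 9 among them. Casp1 was at 12.9, 12.9 and 12.7 CPM in controls and 12.1, 10.0 and 8.88 CPM under βOHB. The groups did not overlap, with a log2 difference of -0.31 (SE 0.12, 95% interval -0.55 to -0.06, adjusted p = 0.621). Directly compared, 5 of the 9 genes differed between butyrate and βOHB in adipocytes, beside 59.5% of all genes: Gsdmd, Casp1, Casp4 and Nlrp3 were lower and Txnip was higher under butyrate. The call of Nlrp3 was lost with limma-voom (-0.81, adjusted p = 0.0615), without βOHB library 2 (-0.72, adjusted p = 0.0609) and without butyrate library 2 (-0.70, adjusted p = 0.0744), and that of Casp1 without βOHB library 1 (-0.29, adjusted p = 0.064). For Il18 the difference was 0.64 with a 95% interval of 0.04 to 1.24 and did not pass the test (adjusted p = 0.0631), although it did with library totals alone (0.76, adjusted p = 0.0288) and without βOHB library 1 (0.83, adjusted p = 0.0407). Nek7 passed with library totals alone (0.18, adjusted p = 0.0245).

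In myotubes, butyrate lowered 5 of the 9 genes, Pycard, Casp1, Gsdmd, Il1b and Nek7, and raised Txnip, beside 66.5% of all genes called. Pycard, near equal to the macrophage level in controls, fell from 17.0, 20.6 and 18.0 CPM to 11.2, 10.3 and 9.21 CPM. The groups were apart, and the level was 1.81-fold lower (log2 difference -0.85, SE 0.13, adjusted p = 9.54e-07). Il1b fell from 1.59 ± 0.201 to 0.279 ± 0.0408 CPM, a 5.61-fold lower level (-2.49, SE 0.36, adjusted p = 1.18e-06) that rests on 6 to 8 counts per butyrate library. The mean sum of the 9 macrophage markers went from 210 to 40.9 CPM in the same libraries, and its part in the falls of Il1b, Pycard and Gsdmd was not tested. Gsdmd fell from 3.02 ± 0.795 to 1.98 ± 0.530 CPM with overlapping ranges (-0.60, SE 0.18, adjusted p = 0.00487). The butyrate library with the most hepatocyte marker RNA, library 2 (559 CPM), was the highest in Gsdmd at 2.59 CPM. Library 3, with 131 CPM of these markers, was the lowest at 1.61 CPM, and library 1, with 31.6 CPM, held 1.75 CPM. Leaving out 1 library at a time kept the call. The log2 difference then ranged from -0.84 (without butyrate library 2, adjusted p = 0.000505) to -0.46 (without control library 2, adjusted p = 0.0491). The part of the hepatocyte markers was not tested. With the myotube libraries alone the call of Gsdmd was lost (-0.58, adjusted p = 0.0682). Nek7 fell from 212 ± 11.8 to 180 ± 8.72 CPM (-0.24, SE 0.07, adjusted p = 0.00212), a call lost with library totals alone (-0.10, adjusted p = 0.204). Not called here, Il18 was higher under butyrate without control library 1 (0.90, adjusted p = 0.0285) and Nlrp3 was lower without control library 3 (-0.87, adjusted p = 0.0498).

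βOHB lowered 1 of the 9 genes in myotubes, Casp1, beside 2.91% of all genes. Casp1 was at 1.70, 1.81 and 0.704 CPM in controls, 0.505, 0.355 and 0.310 CPM under βOHB and 0.285, 0.283 and 0.224 CPM under butyrate. All treated libraries were below the lowest control, and control library 3 was well below the other 2. Against controls the log2 difference was -1.83 under βOHB (SE 0.31, adjusted p = 0.000395) and -2.37 under butyrate (SE 0.33, adjusted p = 2.06e-07). Leaving out 1 library at a time kept the βOHB call (log2 difference -2.15 to -1.60), but fitted on the 9 myotube libraries alone it was lost (-1.86, adjusted p = 0.287). Without control library 3, Nlrp3 (-1.48, adjusted p = 0.0439) and Gsdmd (-0.73, adjusted p = 0.01) were called as well, and Gsdmd also with DESeq2 (-0.55, adjusted p = 0.04) and without the filter (-0.56, adjusted p = 0.032). Between the compounds Casp1 did not pass the test (-0.54, 95% interval -1.43 to 0.35, adjusted p = 0.277).

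The same libraries differed in macrophage markers. The sum of the 9 markers was 287, 231 and 113 CPM in myotube controls, 62.5, 47.1 and 110 CPM under βOHB and 19.0, 74.8 and 28.8 CPM under butyrate. All 9 markers fell under both compounds in myotubes, beside 66.5% of all genes called under butyrate and 2.91% under βOHB. With the myotube libraries alone, edgeR called none of the markers under βOHB, nor any other gene (1420 genes had an unadjusted p below 0.05). As a share of the macrophage controls, Casp1 in myotube controls stood at 2.74% and the marker sum at 1.20%. The control library with the least Casp1 was also the one with the lowest marker sum. In the βOHB group the library with the highest marker sum, library 3, had the lowest Casp1. The βOHB libraries 1, 2 and 3 held 11, 8 and 7 counts of Casp1, too few to rank them. The part of the macrophage markers in the fall of Casp1 was not tested.

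**Figure D3:**
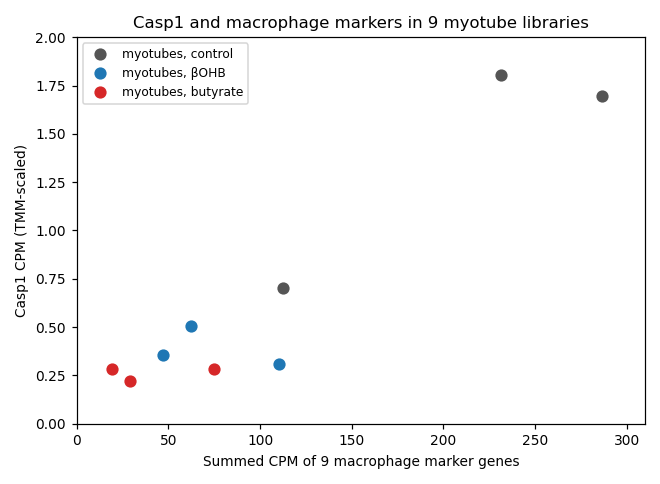
Casp1 CPM against the summed CPM of 9 macrophage markers in the 9 myotube libraries, both axes from 0, 1 point per library and 1 color per treatment. The controls span marker sums of 113 to 287 CPM and Casp1 levels of 0.704 to 1.81 CPM, and the treated libraries lie at marker sums up to 110 CPM with Casp1 at 0.505 CPM or less.

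Between butyrate and βOHB in myotubes, 4 of the 9 genes differed, beside 66.0% of all genes: Il1b (-2.18, SE 0.37, adjusted p = 1.27e-05), Pycard (-0.84, SE 0.13, adjusted p = 1.22e-06) and Nek7 were lower and Txnip was higher under butyrate. For Gsdmd the difference was -0.07, with a 95% interval of -0.47 to 0.33. The call of Nek7 (-0.24) was lost with library totals alone (-0.037, adjusted p = 0.651), and Nlrp3 was called as higher under butyrate without βOHB library 3 (1.49, adjusted p = 0.0481).

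In hepatocytes, butyrate lowered Gsdmd, Il18 and Nek7 and raised Txnip and Il1b, 5 of the 9 genes beside 63.5% of all genes called. Gsdmd fell from 77.5, 70.7 and 72.3 CPM to 38.6, 35.0 and 37.3 CPM. The groups were far apart, and the level was 1.99-fold lower (log2 difference -0.99, SE 0.10, adjusted p = 2.94e-10). Il18 fell from 2.51, 2.95 and 2.96 CPM to 1.96, 1.88 and 1.20 CPM. No butyrate library reached the lowest control (-0.72, SE 0.24, adjusted p = 0.00854), a call lost without butyrate library 3 (adjusted p = 0.0618). Nek7 moved least, from 110 ± 2.70 to 96.6 ± 2.26 CPM (-0.19, SE 0.07, adjusted p = 0.0157), and lost its call with library totals alone (-0.12, adjusted p = 0.151), without the filter (adjusted p = 0.0854), with the hepatocyte libraries alone (adjusted p = 0.174) or without control library 1 (adjusted p = 0.0563). Il1b rose from 0 to 2 counts per control library to 5 to 8 counts per butyrate library (1.99, SE 0.70, adjusted p = 0.0147), and without control library 2 this call was lost (1.44, adjusted p = 0.0779). Nlrp3, Casp1 and Pycard were each at 6 counts or fewer in every hepatocyte library and were not called, and these counts leave their changes poorly determined, with 95% intervals of -2.82 to 0.85 for Nlrp3, -2.34 to 0.57 for Casp1 and -1.81 to 0.90 for Pycard. The macrophage marker sum in hepatocyte cultures was between 299 and 345 CPM in controls and between 137 and 156 CPM after butyrate, and its part was not tested.

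βOHB changed none of the 9 genes in hepatocytes, where 0.00652% of all genes were called, the single gene Cyp2c29, and 845 genes had an unadjusted p below 0.05, none of the 9 among them. Il18 was at 3.37, 4.42 and 3.16 CPM under βOHB, each above each control, with a log2 difference of 0.38 (95% interval -0.06 to 0.82, adjusted p = 0.948). Between the compounds 4 of the 9 genes were called, beside 63.5% of all genes: Txnip was higher, and Gsdmd, Il18 (-1.10, SE 0.23, adjusted p = 8.47e-05) and Nek7 (-0.22) were lower under butyrate. The call of Nek7 was lost with library totals alone (-0.14, adjusted p = 0.0788), with the hepatocyte libraries alone (-0.18, adjusted p = 0.103) and without βOHB library 3 (-0.13, adjusted p = 0.0922). Il1b, not called here, was higher under butyrate with limma-voom (1.26, adjusted p = 0.0351), RLE size factors (1.40, adjusted p = 0.0483) and library totals alone (1.45, adjusted p = 0.0423).

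Txnip and Gsdmd moved the same way under butyrate in all 4 cell types. Txnip was at 639, 611 and 599 CPM in adipocyte controls and 1437, 1526 and 1538 CPM after butyrate (log2 difference 1.28, SE 0.08, adjusted p = 2.93e-14). In myotubes it went from 48.9, 46.7 and 50.9 CPM to 103, 122 and 126 CPM (1.26, SE 0.09, adjusted p = 1.24e-13). In hepatocytes it went from 19.2, 18.5 and 16.6 CPM to 107, 105 and 84.8 CPM, a 5.47-fold higher level (2.45, SE 0.09, adjusted p = 1.31e-19). No butyrate library of Txnip overlapped its controls in any cell type. The log2 difference was largest in hepatocytes, which had the lowest control level. Adipocytes, with the highest control level (616 CPM), showed a larger difference (1.28) than macrophages (0.91, from 191 CPM). Under βOHB the 95% intervals of Txnip were -0.15 to 0.19 in macrophages, -0.26 to 0.07 in adipocytes, -0.24 to 0.11 in myotubes and -0.20 to 0.21 in hepatocytes. None of these reached the smallest lower bound under butyrate, 0.74 in macrophages. The corresponding log2 differences of Gsdmd under butyrate were -1.06, -0.81, -0.60 and -0.99 in macrophages, adipocytes, myotubes and hepatocytes.

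**Figure D4:**
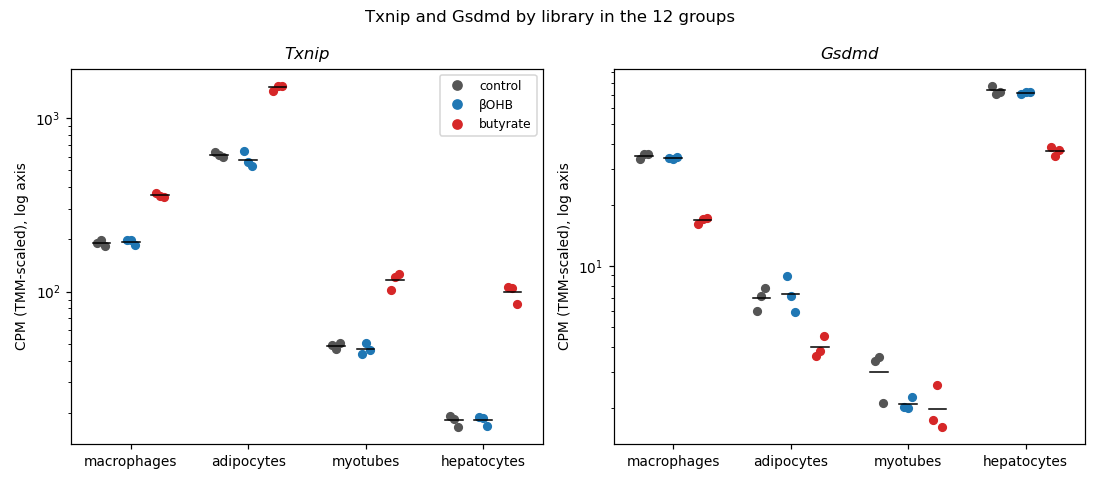
Txnip and Gsdmd in the 12 groups on log axes of TMM-scaled CPM, with 1 point per library and a line for each group mean. Txnip lies higher after butyrate in each cell type, from 18.1 to 98.8 CPM in hepatocytes and from 616 to 1500.2 CPM in adipocytes, and Gsdmd lies lower, with overlap between control and butyrate in myotubes alone.

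Whether the butyrate effect in macrophages differed from the mean effect in the other 3 cell types was tested as a contrast in the same model. 5 of the 9 genes were called, 3 higher and 2 lower in macrophages, beside 39.9% of all genes. Il18 rose more in macrophages by 0.97 (SE 0.24, adjusted p = 0.00171), and Txnip rose less, by -0.76 (SE 0.10, adjusted p = 1.72e-07). The effect on Nek7 was lower by -0.33 (SE 0.08, adjusted p = 0.000824), while those on Casp1 (0.88, SE 0.29, adjusted p = 0.0147) and Pycard (0.74, SE 0.27, adjusted p = 0.0295) were higher. The call of Pycard was lost without macrophage control library 2 (adjusted p = 0.0514), hepatocyte control library 3 (adjusted p = 0.185) or hepatocyte butyrate library 2 (adjusted p = 0.0835). The contrast of Casp1 includes its fall in myotubes (-2.37), where the mean sum of the macrophage markers went from 210 to 40.9 CPM under butyrate, and the part of these markers in the contrast was not tested. For Nlrp3 the difference was -0.88 with a 95% interval of -1.77 to 0.01 and did not pass the test (adjusted p = 0.112), although it did with limma-voom (-1.05, adjusted p = 0.0182) and DESeq2 (-0.86, adjusted p = 0.0265). Nlrp3 had at most 17 counts in any myotube control and 5 in any hepatocyte control, which limits this contrast. The same contrast for βOHB called none of the 9 genes, and 0% of all genes with edgeR. Unadjusted, 529 genes had p below 0.05, limma-voom called 0, and DESeq2 called 5, Rpl14-ps1, Mup7, Fcgr3 and Pakap among them. Casp1 was the only one of the 9 genes with an unadjusted p below 0.05 in edgeR's test of that contrast (0.86, SE 0.28, adjusted p = 1).

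**Figure D5:**
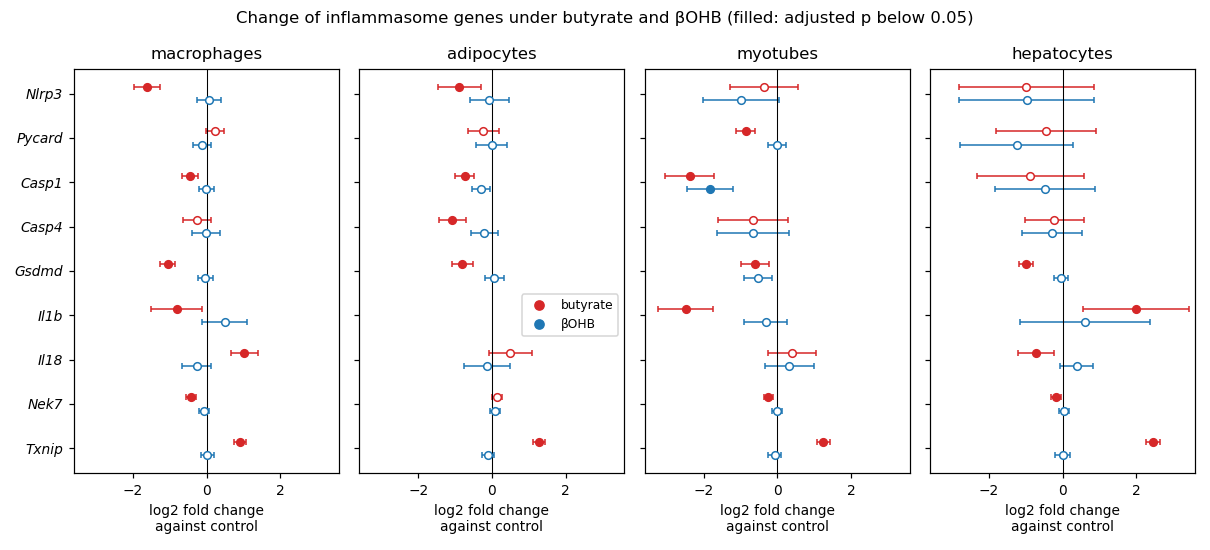
Log2 fold change of each gene against control under butyrate and βOHB in the 4 cell types, with 95% intervals as bars and filled points for an adjusted p below 0.05; Il1b in adipocytes is left out because it had 1 count or none per library. Butyrate moved 7, 5, 6 and 5 of the 9 genes in macrophages, adipocytes, myotubes and hepatocytes, and βOHB moved Casp1 in myotubes.

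Of 73 further genes of the pathway in 8 lists, 69 were tested. Butyrate in macrophages raised 19 and lowered 28 of them, 68.1%, beside the 65.0% of all genes. βOHB changed 0 of the 69 in macrophages, adipocytes or hepatocytes, and lowered 10 and raised 0 in myotubes, 14.5% beside 2.91% of all genes. All 9 macrophage markers fell in the same myotube libraries, and their part in these falls was not tested. None of the 10 was called in the fit on the myotube libraries alone. The priming list, with receptors and NF-κB components that precede Nlrp3 and Il1b transcription, fell in most of its members in macrophages under butyrate, with 10 of 12 lowered and 2 raised, beside the 65.0% of all genes called in either direction, and a median log2 difference of -0.78. Cd14, the lipopolysaccharide co-receptor, stands in both this list and the macrophage markers. Tlr4, the lipopolysaccharide receptor, fell from 125 ± 3.10 to 32.1 ± 4.56 CPM (log2 difference -1.96, SE 0.09, adjusted p = 9.51e-18). Nfkb1, which encodes the p50 precursor, fell from 91.1 ± 1.94 to 41.7 ± 1.84 CPM (-1.13, SE 0.05, adjusted p = 8.05e-19), and Ikbkg, the NEMO subunit of the IκB kinase complex, from 93.2 ± 2.00 to 40.8 ± 1.15 CPM (-1.19, SE 0.06, adjusted p = 1.89e-17).

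Among 8 channels and triggers, 5 fell and 1 rose in macrophages under butyrate, beside the 65.0% of all genes called. P2rx7, the ATP-gated channel whose opening lets potassium leave the cell, fell from 67.0 ± 0.463 to 25.8 ± 1.66 CPM (log2 difference -1.38, SE 0.10, adjusted p = 3.50e-13), and Clic1, a chloride channel protein, from 272 ± 7.94 to 94.7 ± 3.29 CPM (-1.52, SE 0.11, adjusted p = 4.89e-13). The potassium channel gene Kcnk6 fell from 45.6 ± 1.35 to 29.0 ± 0.273 CPM (-0.65, SE 0.11, adjusted p = 4.70e-06). Of 10 other sensor genes, 4 fell and 1 rose, beside 65.0% of all genes called. Nlrp1b fell from 14.3 ± 1.55 to 4.37 ± 0.0966 CPM, Nlrp1a from 9.49 ± 0.973 to 1.89 ± 0.326 CPM and Naip6, a cofactor of the NLRC4 inflammasome, from 28.4 ± 0.247 to 12.3 ± 1.58 CPM. Nlrp1a and Nlrp1b, like the Naip genes, are near-identical copies, and reads may have been split between them.

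Of 8 IL-1 family ligands and receptors, 3 rose and 1 fell in macrophages under butyrate, beside 65.0% of all genes called. Il1r1, which encodes the signaling receptor for interleukin-1, rose from 3.11 ± 0.0544 to 14.8 ± 0.888 CPM, a 4.74-fold higher level (log2 difference 2.25, SE 0.10, adjusted p = 3.98e-18), and its accessory chain Il1rap from 16.3 ± 0.412 to 22.2 ± 1.55 CPM (0.45, SE 0.09, adjusted p = 3.36e-05). Il18bp, the soluble inhibitor of interleukin-18, fell from 4.00 ± 0.0742 to 2.69 ± 0.360 CPM (-0.57, SE 0.19, adjusted p = 0.0107), opposite to Il18 itself. Among 14 regulators of NLRP3, 5 rose and 3 fell, beside 65.0% of all genes called. Mark4, a kinase that positions NLRP3 along microtubules, rose from 33.9 ± 0.702 to 56.5 ± 3.87 CPM, Mavs, a mitochondrial adaptor, from 41.8 ± 0.630 to 66.1 ± 2.45 CPM, and Hdac6, a deacetylase that carries NLRP3 to the centrosome, from 21.8 ± 0.177 to 31.7 ± 0.271 CPM.

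Among executioners of cell death other than Gsdmd, Gsdme, which encodes another pore-forming gasdermin, rose from 6.89 ± 0.491 to 15.1 ± 1.53 CPM (log2 difference 1.13, SE 0.09, adjusted p = 7.16e-12). Casp8 fell from 57.2 ± 0.377 to 30.0 ± 1.09 CPM (-0.93, SE 0.11, adjusted p = 1.40e-08). Of 7 genes tied to Txnip, 4 rose and 2 fell, beside 65.0% of all genes. Txnrd1, which encodes thioredoxin reductase, rose from 254 ± 6.56 to 421 ± 12.5 CPM, and Mlx, the partner of the factors that act on the Txnip promoter, from 33.2 ± 1.32 to 43.9 ± 1.65 CPM. Mlxipl, which encodes the glucose-responsive factor ChREBP, went from 0.0427 ± 0.0424 to 1.16 ± 0.354 CPM (adjusted p = 1.64e-08). Hcar2, the cell-surface receptor for βOHB and butyrate, fell from 1.56 ± 0.186 to 0.522 ± 0.198 CPM in macrophages (-1.56, SE 0.39, adjusted p = 0.00087). In hepatocytes, outside the rule by which these genes are named, it rose (1.39, SE 0.37, adjusted p = 0.00175). Its level there and its results in adipocytes and myotubes are not given here.

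Over the 12 group means of log2 CPM, the genes whose levels were most like those of Nlrp3 were Evi2 (Pearson r = 0.991), Psap (0.990) and Atp8b4 (0.989). For Casp1 they were Gm8995 (0.995), Gm49339 (0.992) and Cd72 (0.992), and for Txnip Mycbp2 (0.981), Ppip5k1 (0.976) and Ctdspl (0.975). For Il1b they were Phrf1 (0.973), Katnbl1 (0.952) and Crkl (0.950). Each cell type gives 3 of the 12 groups, so the points are not independent and these values describe likeness only.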

How the data were processed

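RNA of primary mouse cells was sequenced as paired-end reads in 36 libraries. The authors mapped reads with Salmon (version 1.2.1) to GENCODE M25 transcripts (GRCm38.p6) and imported the estimates with tximport, and the deposited table holds estimated counts per gene, which the methods describe as scaled by transcript length and library size. The kit's strandedness is not given in the sources used here. Counts were rounded to whole numbers and gene IDs were paired with symbols and positions of GENCODE M21 (54094 of 54347 matched). Samples were grouped by title, since the source field of butyrate samples also carried the name bOHB.

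Genes over 1 CPM in at least 6 of 36 libraries (15340) were tested with edgeR 4.0.16 (R 4.3.3, quasi-likelihood, TMM, 12 group means in 1 model, Benjamini-Hochberg). Intervals are 95%. The study's methods used limma, which was run as an alternative (voom, 3.58.1) with DESeq2 1.42.0, other scalings and filters, a replicate block and single libraries left out. The code was tested on simulated data. The members, gene lists and tests were chosen with earlier results of these data known. From each pathway list, the 3 genes with the smallest p for butyrate in macrophages are named, and for 4 members the 3 genes with the highest correlation of group means. A gene that this rule names in the list of cell death executioners, and that list's own count, are not reported here.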

Additional observations from a re-analysis of the deposited data

Results flagged for a closer look

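For 5 of the 9 genes, the butyrate effect in macrophages differed from the mean effect in the other 3 cell types (edgeR's quasi-likelihood test of the contrast, Benjamini-Hochberg adjustment). The difference in log2 fold change was 0.97 for Il18 (adjusted p = 0.00171), which rose in macrophages and fell in hepatocytes. It was -0.76 for Txnip (adjusted p = 1.72e-07), which rose less in macrophages than in hepatocytes. It was -0.33 for Nek7 (adjusted p = 0.000824), 0.88 for Casp1 (adjusted p = 0.0147) and 0.74 for Pycard (adjusted p = 0.0295). The call for Pycard was lost without macrophage control library 2 (0.69, adjusted p = 0.0514), hepatocyte control library 3 (0.57, adjusted p = 0.185) or hepatocyte butyrate library 2 (0.53, adjusted p = 0.0835). The values of Casp1 and Pycard in hepatocytes, which enter these contrasts, rest on 6 counts or fewer per library. The contrast of Casp1 also includes its fall of -2.37 in myotubes, in which the mean sum of 9 macrophage markers went from 210 to 40.9 CPM under butyrate. The part of these markers was not tested.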

How the results depend on the processing

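No called value of the 9 genes reversed its direction in any of 2448 alternative readings of single gene and comparison pairs. Of these readings, 45 lost a call and 31 gained one. Among them, 153 readings, with 14 of the lost calls, took the main fit at an unadjusted p below 0.001. These 153 were not refits and could not reverse a direction. Under βOHB in myotubes, 1 gene was called, against 2 with DESeq2, 2 without the filter on low counts, 0 with the myotube libraries alone and 1 to 3 when single libraries were left out, 3 without control library 3. At an unadjusted p below 0.001, butyrate in hepatocytes changed 2 genes (5 in the report), butyrate and βOHB differed for 3 in adipocytes (5) and the macrophage contrast of butyrate effects called 3 (5). Leaving out single libraries gave 6 to 7 genes for butyrate in macrophages, 5 in adipocytes, 6 to 7 in myotubes and 4 to 5 in hepatocytes. Of the 9 genes, 4 were highest in macrophage controls under both TMM and library totals.

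Over all genes, the βOHB counts were the least stable. Without the filter they were 35 in macrophages (0 with it), 192 in adipocytes (1), 895 in myotubes (446), 48 in hepatocytes (1) and 113 for the macrophage contrast (0). DESeq2 gave 2, 3, 615, 2 and 5 in the same order. With each cell type's libraries alone, the counts were 5 in macrophages, 0 in adipocytes and 0 in myotubes, and at an unadjusted p below 0.001 they were 4 in macrophages, 26 in adipocytes, 25 in hepatocytes and 9 for the contrast. In adipocytes limma-voom, RLE scaling and the replicate block gave 0. Without single libraries they ranged from 0 to 1 in macrophages, 0 to 2 in adipocytes, 175 (without control library 1) to 585 in myotubes, 0 to 29 (without βOHB library 2) in hepatocytes and 0 to 5 for the contrast. At an unadjusted p below 0.001 the butyrate contrast held 3956 genes instead of 6117. With library totals alone, the share of called genes that were raised by butyrate went from 49.0% to 66.7% in macrophages and from 49.8% to 61.8% in myotubes, and between butyrate and βOHB from 49.2% to 67.1% in macrophages, from 50.4% to 61.8% in adipocytes and from 50.1% to 67.1% in myotubes. For the macrophage contrast it went from 47.7% to 65.7%. The cause was not tested.

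The replicate numbers were not taken to pair the libraries, since not every same-numbered pair correlated above 0.1 in any cell type: deviations of same-numbered libraries correlated between -0.06 and 0.09 in macrophages, -0.11 and 0.22 in adipocytes, -0.26 and 0.27 in myotubes and -0.06 and 0.01 in hepatocytes. A library correlated best with its own number in another treatment in 6 of 18 comparisons in macrophages, 13 in adipocytes, 4 in myotubes and 3 in hepatocytes, where chance gives 6. In adipocytes this is a hint of pairing from the data, not from the design. With a replicate block, butyrate changed 7 of the 9 genes in macrophages, 5 in adipocytes, 6 in myotubes and 5 in hepatocytes, and no call of the 9 genes changed. Depth limits Nlrp3, Casp1, Pycard and Il1b in hepatocytes and Il1b in adipocytes, where few or no counts were seen.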
